A study of Mus musculus with 6 samples.

Results

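The galectin genes were followed by RNA-seq in hypoxic (HO) primary cardiomyocytes of neonatal mice (NMCMs). Members were the rows of the count table whose gene name was Lgals1, Lgals3, Lgals4, Lgals8, Lgals9 or Lgals3bp, and all 6 were found among 57010 genes. Libraries V1, V2 and V3 (HO + Vehicle, here the vehicle group) and T4, T5 and T6 (HO + β-SITO, the β-SITO group) were compared to ask how β-sitosterol (β-SITO), a plant sterol, altered the transcriptome of hypoxic cells. The cells came from newborn C57BL/6 pups and were enriched by differential adhesion, so cells other than cardiomyocytes can remain. RNA of fibroblast, endothelial and macrophage markers was found in every library, with values given below. Which cells held the galectin RNA was not tested. All 6 libraries were hypoxic, and no normoxic library was analysed here. The dose of β-SITO and the hours of hypoxia were not stated for these libraries.

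Galectins are lectins that bind β-galactoside sugars on glycoproteins, and are made in the cytosol and exported without a signal peptide. Outside the cell they crosslink glycoprotein receptors, and inside it they gather on the sugars that a torn endosome or lysosome exposes. Galectin-3 (Lgals3) is the chimeric member, with a collagen-like tail, and is abundant in macrophages and used as a plasma marker of heart failure and cardiac fibrosis. Galectin-1 (Lgals1) has a single sugar-binding domain and forms dimers, whereas galectin-4, galectin-8 and galectin-9 carry a pair of such domains in tandem. Lgals3bp is not itself a galectin. It encodes a secreted, heavily glycosylated scavenger-receptor protein that galectins bind.

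The pool of galectin RNA in these hypoxic NMCM cultures, other cells included, differed in composition between the groups. Lgals9 fell 8.65-fold and Lgals3bp fell 8.59-fold in the β-SITO group, while Lgals3 rose 2.97-fold. Lgals8 fell 2.19-fold, a call that rested on the normalization. Lgals1, the most abundant galectin in every library, differed by less than 2-fold, and Lgals4 was close to the limit of detection. Of the 5 members tested, 3 were called lower and 1 higher, where a call needed both a change past 2-fold and an adjusted p below 0.05. The background was high. Among the 14799 genes tested, 10.1% were called lower and 12.8% higher, and 66.8% had an adjusted p below 0.05 in either direction. The groups did not overlap for 5 members, against 70.5% of all tested genes.

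Sequence is shown for the member the study assayed by RT-qPCR in mouse hearts, because the same gene was counted here. It is also shown for the members that fell most. The study's primers for galectin-3 read as follows, with bases of the coding sequence in capitals.
Lgals3 forward: caggaaaATGGCAGACAGCTT
Lgals3 reverse: CCCATGCACCCGGATATC
In the GENCODE vM21 annotation both primers matched 3 of the 6 Lgals3 transcripts, with a product of 86 bases, and of 141767 transcripts searched none of another gene matched. In 2 of these the forward primer of 21 bases crosses the junction of exons 1 and 2 and covers the start codon, and the reverse primer of 18 bases lies in exon 3. The deposited counts were per gene, and transcripts were not counted apart.

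For Lgals9 and Lgals3bp, the stretch from 100 bases before to 30 bases after the RefSeq start site is shown, since these members had the largest decreases (build GRCm38.p6, minus strand, chr11:78984895-78985024 for Lgals9 and chr11:118401930-118402059 for Lgals3bp). Capitals in Lgals9 mark the core of the interferon-stimulated response element, GAAANNGAA on either strand. Capitals in Lgals3bp mark AANNGAAA, the looser core bound by interferon regulatory factors, which was searched only after the first motifs had been read.
Lgals9: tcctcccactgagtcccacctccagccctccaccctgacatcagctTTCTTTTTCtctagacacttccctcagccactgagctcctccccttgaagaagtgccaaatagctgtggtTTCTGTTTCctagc
Lgals3bp: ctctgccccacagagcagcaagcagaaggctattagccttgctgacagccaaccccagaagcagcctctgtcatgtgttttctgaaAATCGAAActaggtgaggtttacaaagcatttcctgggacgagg
Lgals9 had 2 matches to the response element core, TTCTTTTTC from position -54 and TTCTGTTTC from position 17 relative to the start site, both on the opposite strand. Such a match was present in 8.56% of 32851 RefSeq promoters of 300 bases. Lgals3bp had no match to this core within its 300 bases and 1 to the looser core, AATCGAAA from position -14, against 23.9% of all promoters. Lgals9 had 3 matches to the looser core, 2 of which overlap the matches above. The promoters of Lgals3, Lgals4 and Lgals8 held none of the motifs searched, which also included the interferon-gamma activated site TTCNNNGAA (8.3% of promoters), the NF-κB site GGANTTTCC (1.25%), the AP-1 site TGANTCA (7.81%) and the TATA box TATAAA (13.6%). These matches are descriptions of letters in a window, and binding was not measured.

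The libraries held 16694734 to 17082129 counts in the vehicle group and 16962152 to 18460522 in the β-SITO group. Levels are given as CPM, the counts of a gene relative to the TMM-adjusted total of its library, and the TMM factors were 0.9455 to 0.9565 and 1.05 to 1.055. Nothing in the labels says that the libraries of a group came from separate cultures, so p-values measure the spread between these libraries, which may be technical. The names of the β-SITO libraries carry a suffix that the others lack, and any difference in preparation that it marks and the effect of β-SITO cannot be told apart. The reads were of bulk RNA, in which fewer cells of a type and less RNA per cell cannot be told apart.

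Lgals9, the tandem-repeat galectin known as a ligand of the checkpoint receptor Tim-3, had, with Lgals3bp, the largest decrease among the members. The gene ENSMUSG00000001123 lies on the minus strand at chr11:78853800-78875772 (GRCm39). Its level was 796.7, 872.87 and 804.08 CPM in V1, V2 and V3, and 100.36, 93.645 and 91.978 CPM in T4, T5 and T6. Each β-SITO library was far below every vehicle library. The mean went from 824.55 ± 42.011 to 95.328 ± 4.4389 CPM (SD, n = 3), and the log2 fold change was -3.11 ± 0.0667 (SE, edgeR's quasi-likelihood test, adjusted p = 2.71e-15). Lgals9 was the 142nd most abundant of the tested genes by CPM in the vehicle group and the 2017th in the β-SITO group. A decrease of this size or larger was found for 2.94% of tested genes.

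Lgals3bp, which encodes the galectin-3-binding protein, followed closely. The gene ENSMUSG00000033880 lies on the same chromosome and strand, at chr11:118283577-118292918. V1, V2 and V3 held 1767.0, 1687.9 and 1664.4 CPM, and T4, T5 and T6 held 213.32, 193.75 and 189.0 CPM. Again the groups lay far apart, with little spread in either. The log2 fold change was -3.10 ± 0.0681 (adjusted p = 3.52e-15), from 1706.5 ± 53.749 to 198.69 ± 12.886 CPM. In the vehicle group this was the 51st most abundant tested gene, and 2.97% of tested genes had a decrease as large. The log2 ratio of Lgals9 to Lgals3bp (CPM) was between -1.149 and -0.951 in the vehicle libraries and between -1.088 and -1.039 in the others. The change in this ratio was -0.0085 (exact permutation test, two-sided, p = 1, where 3 libraries against 3 cannot go below 0.1), less than the spread of the ratio between the vehicle libraries (SD 0.0989).

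Lgals3 was the member that rose. The gene ENSMUSG00000050335 lies on the plus strand at chr14:47605208-47623617. Its level was 63.228, 65.07 and 59.749 CPM in the vehicle libraries and 203.86, 175.04 and 179.53 CPM in the β-SITO libraries, T4 being the highest. The groups did not overlap. The mean went from 62.683 ± 2.702 to 186.14 ± 15.508 CPM, a log2 fold change of 1.57 ± 0.0695 (adjusted p = 1.83e-11), which 6.74% of tested genes reached or passed. By CPM the gene moved from rank 3541 to rank 867.

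Lgals8, whose protein is known as a sensor of damaged endosomes, was lower with β-SITO. The gene ENSMUSG00000057554 lies on the minus strand at chr13:12454296-12479825. Its level was 112.05, 106.19 and 125.39 CPM in V1, V2 and V3 and 54.884, 51.431 and 50.752 CPM in T4, T5 and T6. All 3 β-SITO libraries were below the lowest vehicle library. The log2 fold change was -1.13 ± 0.0701 (adjusted p = 1.19e-09), from 114.54 ± 9.8362 to 52.356 ± 2.2155 CPM. Because it was close to 2-fold, the call was lost with upper-quartile scaling (-0.99), with library size alone (-0.98) and when the test itself required more than 2-fold (adjusted p = 0.0677). The gene shares 875 bases with Heatr1 on the opposite strand, and the strand setting of the counting was not stated, so reads in those bases cannot be told apart. Heatr1 itself held 701 to 898 counts in the vehicle libraries and 545 to 716 in the others, with Lgals8 at 1694 to 2023 and 915 to 1068.

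Lgals1, the prototype galectin of mesenchymal and muscle cells, was abundant in both groups. The gene ENSMUSG00000068220 lies on the plus strand at chr15:78810925-78814665. V1, V2 and V3 held 1064.8, 1310.3 and 1071.7 CPM, with V2 above the other two, and T4, T5 and T6 held 980.61, 943.36 and 924.26 CPM. The groups did not overlap, but the gap between the lowest vehicle library and the highest β-SITO library was narrow. The log2 fold change was -0.28 ± 0.0767 (adjusted p = 0.0052), from 1148.9 ± 139.8 to 949.41 ± 28.658 CPM, and it was not called. Without V2 it was -0.17. With library size alone it was -0.13 and its adjusted p was 0.165. Scaling shifted all genes together. The median log2 fold change of all tested genes was -0.00728 with TMM, 0.136 with upper-quartile scaling and 0.141 with library size alone.

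Lgals4, a galectin of the gut epithelium, was near the floor. The gene ENSMUSG00000053964 at chr7:28533279-28541133 had 7, 2 and 1 counts in V1, V2 and V3 and 18, 8 and 6 counts in T4, T5 and T6. The groups overlapped, and 3 counts came to 0.1542 to 0.1895 CPM in these libraries. The gene did not pass the low-count filter and was not tested in the model across genes (exact permutation test on its own CPM, two-sided, p = 0.2). None of 5 gut-type epithelial markers (Epcam, Cdh1, Vil1, Krt20 and Cdx2) passed the filter, and Cdx2 was at 0 in every library.

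**Figure D1:**
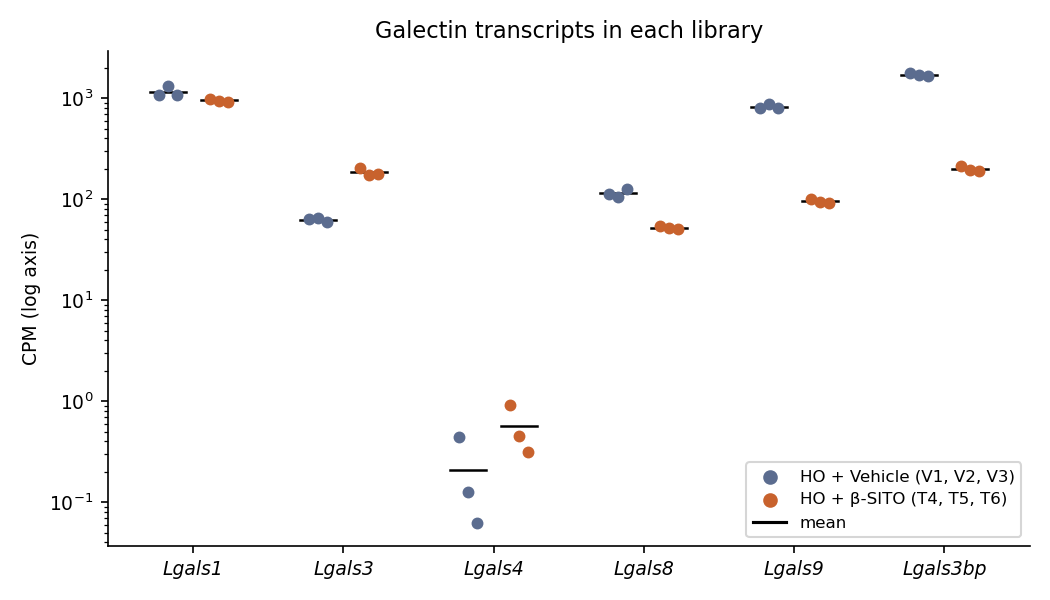
Level of each galectin member in each library, in CPM on a log axis, with the HO + Vehicle and β-SITO libraries as points and the mean of 3 libraries per group as a line. Lgals9 and Lgals3bp lie at 797 to 1767 CPM in the vehicle libraries and at 92.0 to 213 CPM in the β-SITO libraries, while Lgals3 lies at 59.7 to 65.1 and 175 to 204 CPM.

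**Figure D2:**
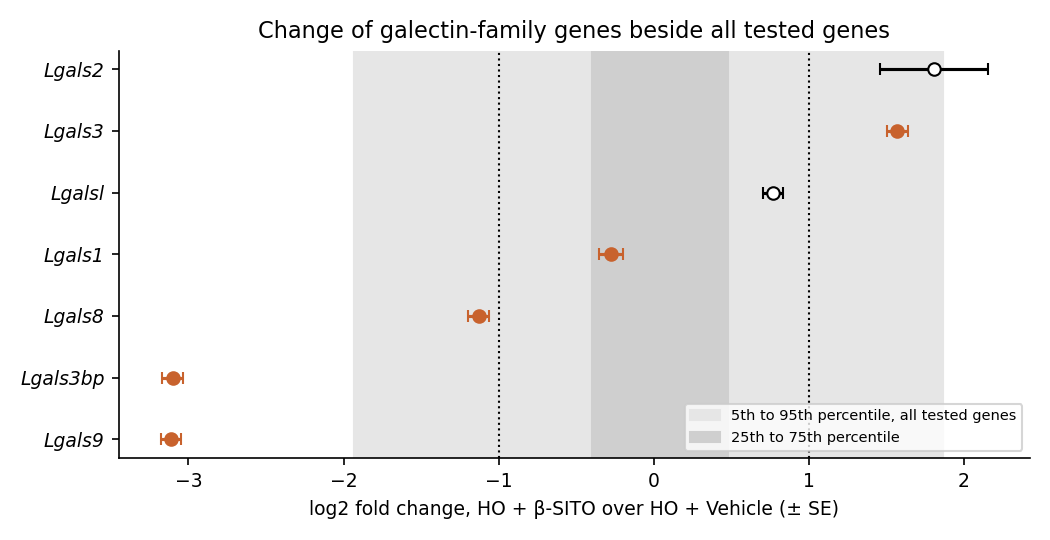
Log2 fold change (HO + β-SITO over HO + Vehicle) of the 5 tested members (filled points) and of Lgals2 and Lgalsl (open points), with bars of 1 SE, over shaded bands for the 5th to 95th and 25th to 75th percentiles of all tested genes and dotted lines at 2-fold. Lgals9 (-3.11) and Lgals3bp (-3.10) lie below the 5th percentile of all genes (-1.93), Lgals3 (1.57) lies below the 95th percentile (1.86), and Lgals1 (-0.28) lies within the 25th to 75th percentiles (-0.401 to 0.48).

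To compare one galectin with another, CPM was divided by the length of the gene's merged exons in kilobases. In the vehicle group the level per length was 1272.3 ± 154.82 CPM per kb for Lgals1, 599.39 ± 18.879 for Lgals3bp, 385.84 ± 19.659 for Lgals9, 33.737 ± 1.4543 for Lgals3, 31.059 ± 2.6671 for Lgals8 and 0.0906 ± 0.088 for Lgals4 (SD, n = 3). Lgals3 and Lgals8 overlapped here (32.158 to 35.022 and 28.794 to 33.999 CPM per kb), and with coding length they changed places. In the β-SITO group the order was Lgals1 (1051.4 ± 31.737 CPM per kb), Lgals3 (100.18 ± 8.3467), Lgals3bp (69.79 ± 4.5261), Lgals9 (44.609 ± 2.0772), Lgals8 (14.196 ± 0.60073) and Lgals4 (0.243 ± 0.139). No neighbours in this second order overlapped. Lgals3 thus passed Lgals3bp and Lgals9 in level per length.

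Within the 5 galectins proper, Lgals1 made up 72.84% to 75.44% of the summed level per length in the vehicle libraries and 86.33% to 87.29% in the β-SITO libraries. The share of Lgals9 was 21.24% to 23.09% in the former and 3.66% to 3.73% in the latter. Lgals3 made up 1.82% to 2.11% against 7.87% to 8.72%. The groups did not overlap for these shares (a description, since shares of one pool depend on each other). The log2 ratio of Lgals3 to Lgals9 (CPM) went from -3.717 ± 0.0535 to 0.963 ± 0.06, a change of 4.68 (two-sided exact permutation test, p = 0.1, which is the minimum for 3 libraries against 3). This ratio, unlike the fold changes, did not depend on the scaling of the libraries. The ratio of Lgals3 to Lgals3bp changed by 4.672 on the log2 scale (p = 0.1, exact permutation test), from -4.767 to -0.0954, so that Lgals3 and its binding protein were at nearly the same CPM with β-SITO. All 6 members together, Lgals3bp included, took 0.3519% to 0.3863% of all counts in the vehicle libraries and 0.151% to 0.1638% in the others. Lgals3bp alone took 0.1572% to 0.1673% and 0.01987% to 0.02249%. The summed level of the 5 galectins was 1616.6 to 1923.4 CPM per kb in the vehicle libraries and 1177.1 to 1257.9 in the others.

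**Figure D3:**
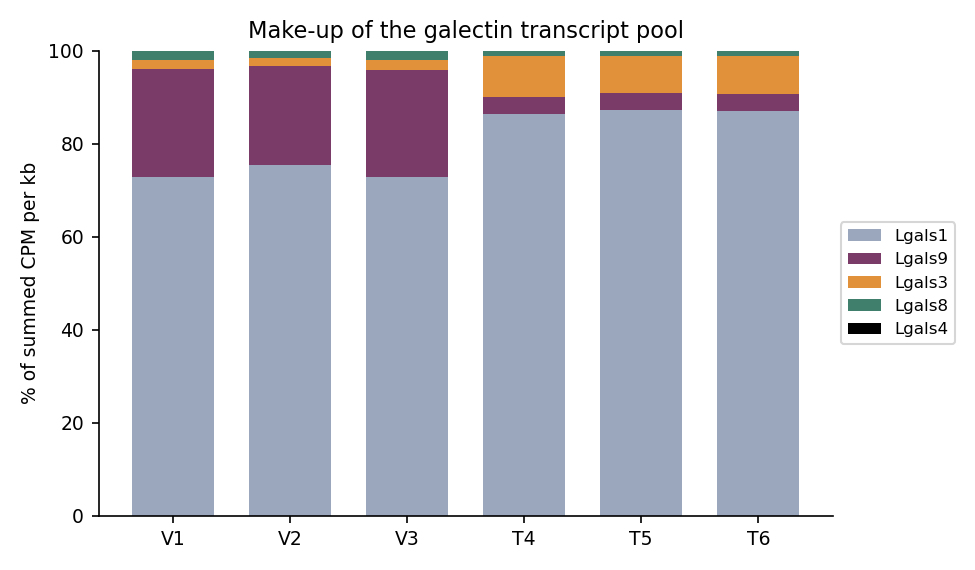
Share of each galectin in the summed level per length (CPM per kb) of the 5 galectins, in percent, as stacked bars for each library from 0. Lgals1 takes most of every bar, the Lgals9 segment is 21.24% to 23.09% in V1 to V3 and 3.66% to 3.73% in T4 to T6, and the Lgals4 segment is too small to see.

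Among other galectin-family genes, Lgalsl was above Lgals8 (50.752 to 54.884 CPM) in the β-SITO libraries, and the rest of those found held few or no counts. Of the 7 listed, 5 were in the table and Lgals6 and Lgalsl2 were not analysed here. Lgalsl, a galectin-related gene that does not bind lactose, had 38.55 to 39.67 CPM in the vehicle libraries and 63.88 to 69.07 CPM in the others, and its log2 fold change, 0.77 (adjusted p = 3.48e-08), was under 2-fold. Lgals2 rose from 5, 9 and 8 counts to 33, 20 and 39 counts (log2 fold change 1.81, adjusted p = 0.000303). Lgals7 held 0 or 1 counts in the vehicle libraries and 1 to 4 in the others, and Lgals12 and Grifin were at 0 throughout.

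Galectin-3 is a macrophage product, so macrophage markers were set beside Lgals3. Of 14 markers, 9 were called higher and 2 lower with β-SITO, against 12.8% and 10.1% of all tested genes. The list was chosen with earlier results of these data known, so this count is a description. The median log2 fold change of the markers was 1.26 (-0.00728 over all genes). Their summed level was 1404.5 to 1531 CPM in the vehicle libraries and 2899.9 to 3559.2 CPM in the β-SITO libraries, and T4, the highest library for Lgals3, was also the highest for this sum. Cd163, a scavenger receptor, held 0, 0 and 2 counts in V1, V2 and V3 and 32, 36 and 32 in T4, T5 and T6, and no other listed marker was at 0 in any library. Csf1r, the receptor for macrophage colony-stimulating factor, rose from 71.9 to 77.23 CPM to 208.3 to 239.1 CPM (log2 fold change 1.54, adjusted p = 1.62e-11), and Cd68, a lysosomal glycoprotein of phagocytes, rose by 1.60 (adjusted p = 2.84e-11). C1qa (1.70), C1qb (1.36), C1qc (1.57), Lyz2 (1.12), Mertk (1.16), Mrc1 (4.79) and Cd163 rose, Fcgr1 (-2.18) and Cd14 (-1.56) fell, and Adgre1 (-0.06), Ptprc (-0.03) and Itgam (0.47) were not called. The calls of Lyz2 and Mertk were lost when the test itself required more than 2-fold. The part of macrophage number in the level of Lgals3 was not tested.

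Genes were also ranked by how closely their pattern over the libraries followed that of Lgals3. With little spread within the groups, closeness here and below mostly reflects a like fold change between the groups. Over 10991 genes with a mean of at least 100 counts, the centred log2 CPM of Csf1r was the closest to that of Lgals3 (root mean square difference 0.0201 over 6 libraries), followed by Cd68 (0.0392) and Ucp2 (0.0397), a mitochondrial carrier. The ratio of Lgals3 to Csf1r (CPM) was 0.819 to 0.843 in the vehicle libraries and 0.84 to 0.853 in the β-SITO libraries. Its ratio to C1qc, 0.899 to 0.933 against 0.867 to 0.963, overlapped between the groups as well. The ratio of Lgals3 to Lyz2, 0.0917 to 0.108 against 0.127 to 0.139, did not overlap. Against the scavenger receptor Mrc1 the ratio went from 5.04 to 5.51 down to 0.53 to 0.609, and against Adgre1, the F4/80 antigen, from 0.382 to 0.454 up to 1.25 to 1.33. These denominators were picked after their values were seen.

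**Figure D4:**
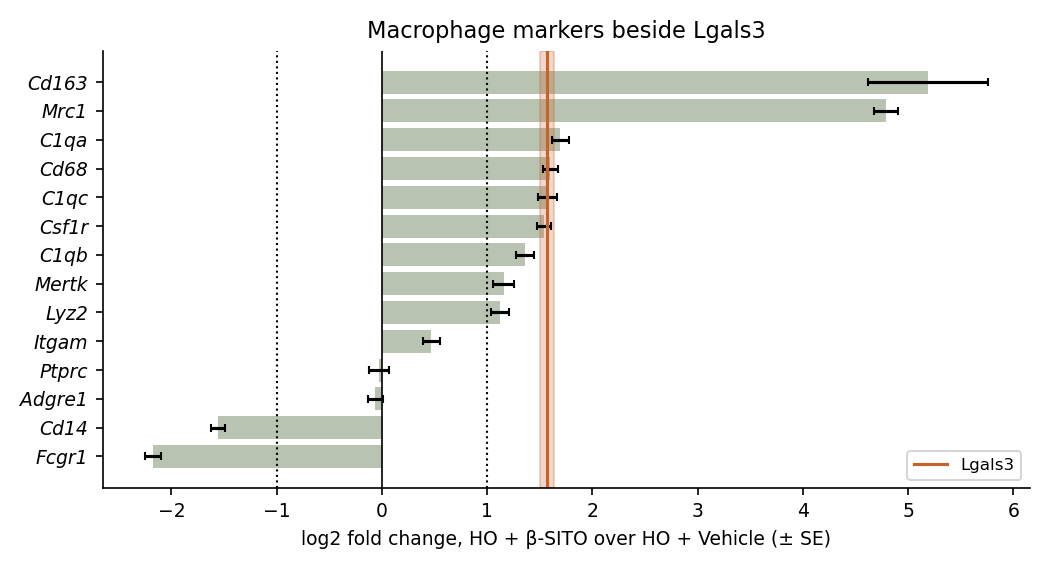
Log2 fold change (HO + β-SITO over HO + Vehicle) of the 14 macrophage markers as bars from 0 with 1 SE, with Lgals3 as a vertical line and a band of its SE, and dotted lines at 2-fold. Lgals3 (1.57) lies beside Csf1r (1.54), Cd68 (1.60) and C1qc (1.57), whereas Mrc1 rises by 4.79 and Fcgr1 and Cd14 fall by 2.18 and 1.56. The bar of Cd163 rests on at most 2 counts in each vehicle library and is a fitted value.

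Markers of other cell types were summed in the same way. All 13 cardiomyocyte markers were detected and tested, with a summed level of 6723.5 to 7679.9 CPM in the vehicle libraries and 5599.6 to 9224.9 CPM in the others. T4 stood apart, at 5599.6 CPM against 9149.4 and 9224.9 CPM in T5 and T6, so part of the spread of the β-SITO group came with this library. The sum of 10 fibroblast markers was 30023 to 31268 against 45032 to 46157 CPM, that of 9 endothelial markers 680.79 to 799.98 against 934.66 to 980.85 CPM, that of 7 smooth muscle and mural markers 1098.1 to 1188.9 against 1881.5 to 2131.9 CPM, and that of 5 mesothelial markers 53.3 to 58.9 against 87.4 to 107.71 CPM. Called lower and higher were 0 and 2 cardiomyocyte, 0 and 2 fibroblast, 1 and 8 endothelial, 0 and 3 mural and 0 and 2 mesothelial markers. Over all tested genes the shares were 10.1% lower and 12.8% higher. The median log2 fold change was 0.229 for cardiomyocyte, 0.642 for fibroblast, 1.91 for endothelial, 0.988 for mural and 0.656 for mesothelial markers. The mesothelial Wt1 lost its call without V1, and Wt1 and the mural Rgs5 lost theirs when the test itself required more than 2-fold. Without T5, 5 mural markers were called higher, as also with upper-quartile scaling or library size alone, and the fibroblast marker Lum was called without V3 or without T6. Neutrophil and T cell markers were scarce, with Ly6g, Cd3e, Cd3d and Cd3g at 0 in every library, summed neutrophil markers at 21.476 to 23.069 against 5.2837 to 7.8625 CPM (2 of 2 tested called lower) and T cell markers at 0.93 to 1.52 against 3.55 to 3.93 CPM (1 of 2 tested called higher, and 2 of 2 without V1 or with either of those scalings). The part of these cells in the members' levels was not tested.

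Lgals9 and Lgals3bp are known as interferon-responsive genes, and they were set beside 14 interferon-stimulated reference genes. These were chosen with earlier results of these data known, so the count called is a description. All 14 were called lower, against 10.1% of all tested genes, with a median of -6.68 and a range from -1.67 (Irf9) to -9.25 (Mx1). Lgals9 and Lgals3bp fell less than 13 of them. Mx1, an antiviral GTPase, Gbp2 (-7.75), Rsad2 (-7.57) and Isg15 (-6.96), a ubiquitin-like protein, had the largest decreases. The patterns closest to Lgals9 were those of Lgals3bp (root mean square difference 0.0591), Psme2 (0.0643), a subunit of the proteasome activator, and Tapbp (0.0692), the peptide-loading chaperone tapasin. Closest to Lgals3bp were the complement gene C3 (0.0469), Dram1 (0.0503) and Lgals9. The part of interferon signalling in the levels of Lgals9 and Lgals3bp was not tested.

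Lgals8 was closest in pattern to Crbn (0.026), Bach1 (0.0391) and Atm (0.0398), and Lgals1 to Nedd8 (0.0325), Rab13 (0.0336) and Plac9 (0.0368). Such neighbours were common for genes with small changes. Within a difference of 0.2 there were 3985 genes for Lgals1 and 620 for Lgals8, but 347 for Lgals3, 70 for Lgals9 and 67 for Lgals3bp.

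Glycoproteins that galectins bind moved in both directions. Of 39 ligands and receptors, 34 were tested, of which 10 were called lower and 8 higher. Over all tested genes, 10.1% were called lower and 12.8% higher. The median log2 fold change of the 34 was -0.196 (-0.00728 over all genes). For Lgals9, its receptor Havcr2 (Tim-3) rose from 11, 16 and 11 counts to 138, 114 and 98 counts (2.96, adjusted p = 1.87e-08), opposite to its ligand. Cd44, the hyaluronan receptor, fell from 448.5 ± 31.1 to 74.18 ± 3.63 CPM (-2.60, adjusted p = 3.57e-14), and Tnfrsf9 (4-1BB) fell from 22.94 ± 2.01 to 1.441 ± 0.665 CPM (-3.99, adjusted p = 5.07e-11). P4hb, the surface disulfide isomerase, had a log2 fold change of -0.21 and was not called.

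Among partners of galectin-3, the microglial and macrophage receptor Trem2 rose from 7.072 ± 0.793 to 54.82 ± 2.52 CPM (2.95, adjusted p = 2.36e-13), and Mertk, an efferocytosis receptor, from 14.51 ± 1.86 to 32.38 ± 2.8 CPM (1.16, adjusted p = 6.28e-08). The lysosomal glycoproteins Lamp1 (-0.18) and Lamp2 (-0.62) were not called. For galectin-1, Nrp1 rose by 1.03 (adjusted p = 7.39e-10), while Itgb1 was at 1339 to 1500 CPM and 1296 to 1355 CPM and its groups overlapped (-0.07, adjusted p = 0.318). Podoplanin (Pdpn), a partner of galectin-8, fell from 563.6 ± 17.6 to 93.64 ± 9.14 CPM (-2.59, adjusted p = 6.75e-14). Cd47, the "do not eat me" signal, fell by 2.27, and the endothelial genes Kdr (2.40) and Mcam (1.63) and the integrin Itga3 (1.40) rose. The calls of Nrp1, Mertk and Muc1 were lost when the test itself required more than 2-fold. Muc1, at 26 to 42 against 12 to 22 counts, also lost its call without V2 or without T4.

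Enzymes that build or cap the sugars included genes called in each direction. Of 36 listed, 31 were tested, with 5 lower, 5 higher and a median of -0.196, beside 10.1% lower and 12.8% higher over all tested genes. Gcnt4, among those lower, held 26 to 29 counts against 9 to 23 and lost its call without T4 or without T6. Its call was also lost with upper-quartile scaling, with library size alone and when the test itself required more than 2-fold. St6gal1, whose α2,6-sialic acid caps block the binding of most galectins, rose from 56, 49 and 43 counts to 949, 777 and 839 counts (3.87, adjusted p = 8.19e-14). B4galt4 (1.33) and Gcnt1 (1.31) rose as well. B3gnt7 (3.34, from 2 or 3 counts to 27 to 30) and B3gnt8 (2.74, from 11 to 16 counts to 96 to 123) were also called higher, at fewer counts. B3gnt5, which starts lacto-series glycolipids, fell from 26.56 ± 1.21 to 1.629 ± 0.325 CPM (-4.02, adjusted p = 3.87e-13). Mgat4a (-2.52, from 99.98 ± 6.5 to 17.46 ± 0.523 CPM), a branching enzyme, B4galt5 (-2.01, from 567.6 ± 12.8 to 141.4 ± 4.77 CPM) and Gcnt2 (-1.49) fell. Mgat5, which makes the branch preferred by galectin-3, had 40.25 to 48.13 CPM against 70.22 to 73.23 CPM, a log2 fold change of 0.69 that was not called.

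The machinery that acts with galectins on damaged lysosomes was read from 49 listed genes. Of these, 47 were tested, with 1 lower, 3 higher and a median of -0.159, beside 10.1% lower and 12.8% higher over all tested genes, most of which were likewise not called. Trim16, which works with galectin-3 in autophagy of damaged lysosomes, rose from 5.3 ± 0.157 to 15.9 ± 0.364 CPM (1.58, adjusted p = 2.46e-09). Chmp4b, an ESCRT-III subunit of membrane repair, fell from 488.9 ± 17.5 to 182.4 ± 0.808 CPM (-1.42, adjusted p = 4.99e-12). The other 2 genes called higher had few counts. Fbxo27 held 0, 2 and 3 counts in the vehicle libraries and 13, 19 and 20 in the β-SITO libraries. Ube2ql1 (1.05) lost its call without V3, without T4 and when the test itself required more than 2-fold. Calcoco2, whose human counterpart binds galectin-8 in xenophagy, was at 0 in every library.

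**Figure D5:**
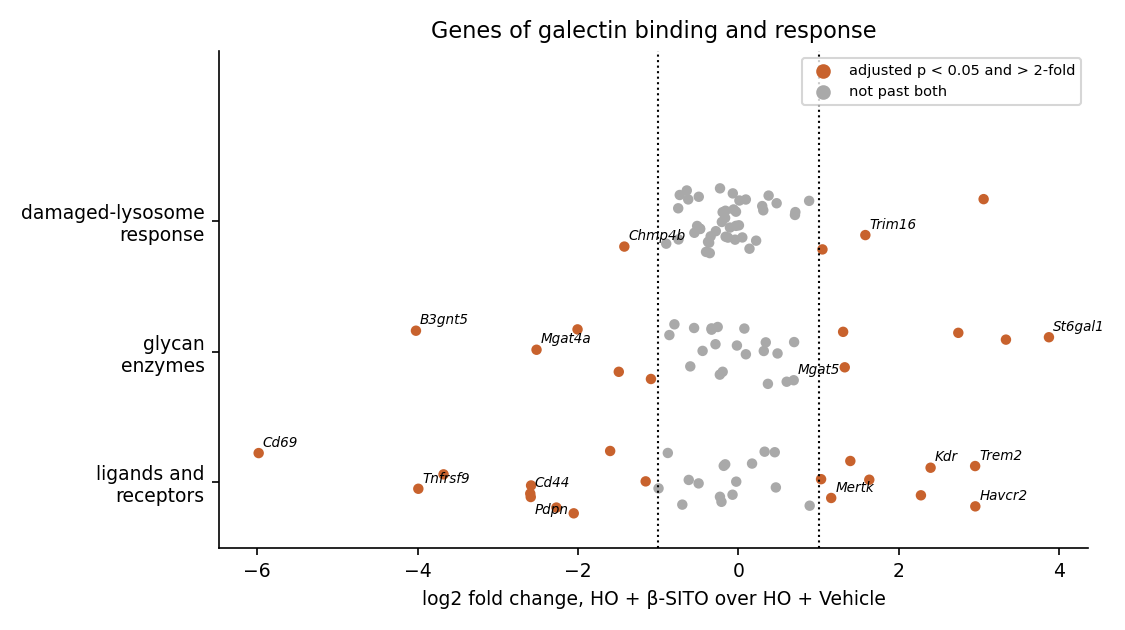
Log2 fold change of each tested gene of 3 lists (34 ligands and receptors, 31 glycan enzymes and 47 genes of the damaged-lysosome response), with 2-fold marked by dotted lines and called genes in colour. Called genes lie on both sides for the first 2 lists (10 lower and 8 higher, 5 and 5), whereas 43 of the 47 damaged-lysosome genes are not called. Of all tested genes, 10.1% are called lower and 12.8% higher.

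The other genes of the study's RT-qPCR panel were read beside galectin-3. The study measured this panel in heart tissue of mice with myocardial infarction, and the collagens also in fibroblasts given TGF-β. Apart from the reference gene Gapdh, it reported lower RNA of the panel, galectin-3 included, with β-SITO. Samples, treatment and time thus differ from those of the cells here. Of 6, none was called lower and 2 were called higher, against 10.1% and 12.8% of all tested genes. Nppa, the atrial natriuretic peptide gene, went from 416.3 ± 34.5 to 1176 ± 458 CPM (1.497, adjusted p = 1.17e-05) and Nppb from 10.16 ± 0.614 to 43.82 ± 21.4 CPM (2.10, adjusted p = 1.71e-05), with T4 lower than T5 and T6 in both. Col1a1 (0.42), Col3a1 (0.85), Acta2 (0.99) and the reference gene Gapdh (0.90, adjusted p = 5.23e-06) had adjusted p under 0.05 and were not called. Acta2 lay so close to 2-fold that it was called without V1, V2, T4 or T5, and with upper-quartile scaling or library size alone, as Gapdh was with these scalings and Col3a1 with library size alone. Gapdh was at 144.9 to 194.7 CPM in the vehicle libraries and at 285.6 to 388.9 CPM in the others, so its groups did not overlap. Divided by Gapdh, as RT-qPCR does, the level of Lgals3 was 0.3506, 0.3342 and 0.4123 in V1, V2 and V3 and 0.7139, 0.597 and 0.4616 in T4, T5 and T6. The direction was kept, and the log2 change was 0.68, less than that of the CPM (exact permutation test, two-sided, p = 0.1). By the same ratio Lgals9 changed by -4.00, Lgals3bp by -4.00, Lgals8 by -2.02 and Lgals1 by -1.16 on the log2 scale.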

How the data were processed

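RNA-seq counts of 6 libraries, 3 HO + Vehicle and 3 HO + β-SITO, were used as deposited. The authors sequenced paired-end reads and deposited raw counts per gene; the submitters' processing notes name FastQC, HISAT2, featureCounts and GRCm39, with no versions and no strand setting. The library kit is given as ABclonal in the methods and as Illumina in the labels. Groups came from the sample titles.

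Genes were filtered with filterByExpr, scaled by TMM and tested with edgeR 4.0.16 (R 4.3.3), with group as the only term and Benjamini-Hochberg adjustment over 14799 genes. Calls used the study's cutoff, a change past 2-fold at an adjusted p below 0.05. Alternatives used DESeq2 1.42.0, limma 3.58.1, glmTreat, other scalings and filters, removal of mitochondrial genes and of each library. The script was tested on simulated data. Depth sets the floor given for Lgals4, and covers counting error only.

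The deposited table holds no gene length, so levels per length used merged exons of GENCODE vM21 (52081 of 57010 identifiers matched). Promoters came from RefSeq; Lgals1 had none, and no protein sequence was used.

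The members and lists were chosen with earlier results of these data known. Named genes were the members, the whole family list, known partners, the RT-qPCR panel, up to 4 called genes per direction and list with the largest change at a mean of at least 100 counts, and the 3 closest patterns per member. Some further called genes with fewer counts are named with their values. Marker genes are given by list.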

Additional observations from a re-analysis of the deposited data

How the results depend on the processing

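The direction of every tested member was kept under all alternatives, and Lgals3, Lgals9 and Lgals3bp were called under each of them. When single libraries were omitted, the log2 fold change was 1.501 to 1.642 for Lgals3, -3.15 to -3.066 for Lgals9, -3.156 to -3.055 for Lgals3bp, -1.178 to -1.036 for Lgals8 and -0.3052 to -0.167 for Lgals1. The call of Lgals8 was lost with upper-quartile scaling (-0.9856), with library size alone (-0.9806) and with glmTreat (-1.129, adjusted p = 0.0677). Without the low-count filter 2 members were called higher, since Lgals4 was then tested (1.414, adjusted p = 0.0402). Without the fold cutoff, 5007 genes passed as lower and 4885 as higher, Lgals1 passed (-0.2752), 2 other galectin-family genes passed as higher, and the lists gave 17 lower and 13 higher for ligands and receptors, 16 and 12 for glycan enzymes, 22 and 10 for the damaged-lysosome response and 6 higher for the RT-qPCR panel. That panel gave 4 higher with upper-quartile scaling and 5 with library size alone. With coding length, Lgals3 ranked 5 and Lgals8 ranked 4 in the HO + Vehicle group. The causes of these differences were not tested, apart from the cutoff, filter and length that each alternative changed.

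No paired analysis was possible because the libraries of the groups share no replicate number. Depth limits Lgals4, at 1 to 18 counts per library, for which the groups overlapped.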
